A study of Mus musculus with 12 samples.

Results

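The heat shock chaperones described here are 10 genes of the 55471 in the table: Hspa1a, Hspa1b, Hspa8, Hsp90aa1, Hsp90ab1, Hsph1, Dnaja1, Dnajb1, Hspd1 and Hspe1. They were chosen by name, and the set was picked because Hspa1a and Hspa1b were much lower in dKO and PRMT1_KO, so their changes in dKO against WT and in PRMT1_KO against WT_PRMT1 are given as a description, with no test. All 10 passed the filter on low counts in a fit of 17063 genes.

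Messenger RNA was counted in LSK cells, bone marrow cells that lack lineage markers and carry Sca1 and Kit, among them the blood-forming stem cells. The mice were primary transplant recipients sampled 6 weeks after tamoxifen, in 6 groups of 2 libraries. WT, HOXA9_KO, Bcat_KO (targeting Ctnnb1, which encodes β-catenin) and dKO (both genes) were compared with each other, and PRMT1_KO with WT_PRMT1, the WT of the Prmt1 experiment. The genotype labels read knockdown while the titles read KO, and groups are named here as in the titles. The alleles, the driver of the tamoxifen-dependent deletion, the animals' age and whether a group's 2 libraries are separate animals are unknown from the sources used here, so p-values may measure technical spread only. Libraries are named by group and S tag.

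Depth ran from 17569709 counts (HOXA9_KO S4) to 40553891 (Bcat_KO S4). Both Bcat_KO libraries were deeper than all others, with 29943990 counts in S3. Even values made up 74.3 and 75.9% of nonzero counts in Bcat_KO and 67.1 to 72.2% elsewhere. The tag S4 occurs in both Bcat_KO and HOXA9_KO, and no other tag is shared. In comparisons with Bcat_KO, the knockout therefore cannot be told apart from such a library difference. Hoxa9 was at 58.7 and 59.9 CPM (counts scaled to library size) in WT, 12.2 and 8.36 (HOXA9_KO) and 9.21 and 8.92 (dKO). Ctnnb1 was at 315 and 342 CPM (WT), 276 and 267 (Bcat_KO) and 227 and 235 (dKO), a smaller difference. Prmt1 was at 283 and 292 CPM (WT_PRMT1) and 118 and 112 (PRMT1_KO). The LSK markers (8 of 8 genes detected in every library) summed to 1192 to 2115 CPM and differed by group. Their sums were 1911 and 1752 CPM (WT), 1528 and 1326.5 (HOXA9_KO), 1725 and 1788 (Bcat_KO) and 1229 and 1192.5 (dKO). They were 1566 and 1641 (WT_PRMT1) and 2115 and 1997 (PRMT1_KO), so PRMT1_KO lay above its control while HOXA9_KO and dKO lay below theirs. The part of these differences in the chaperone values was not tested. The 4 WT and WT_PRMT1 libraries held 163 to 202 CPM of the female-specific transcript Xist and 0.792 to 2.87 of the Y-linked Ddx3y, whereas the 8 knockout libraries held 60.6 to 93.5 of Ddx3y and 0 to 21.9 of Xist, highest in Bcat_KO. In every comparison of a knockout with its control, the knockout therefore cannot be told apart from this sex-typed difference. By Ddx3y, dKO, HOXA9_KO and Bcat_KO all lie on the same side of it. Xist still differed among them, at 11.2 and 21.9 CPM in Bcat_KO, 0 and 0.582 in HOXA9_KO and 0.619 and 0.418 in dKO. Comparisons of Bcat_KO with HOXA9_KO or dKO therefore carry an Xist difference too, and its part in them was not tested. B cell markers also followed the split of controls from knockouts, with 8 of 8 genes detected throughout. Their sums were 706 to 952 CPM in the control libraries and 66.4 to 386 in the knockouts. Megakaryocyte and platelet markers (6 genes) split the same libraries the other way, with sums of 62.2 to 155 CPM in the controls and 215 to 841 in the knockouts.

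Heat shock proteins are chaperones, which bind unfolded proteins and help them fold or prevent their clumping. HSP70 proteins hold short unfolded stretches through cycles of ATP binding, J-domain proteins bring them clients and start ATP hydrolysis, and HSP110 proteins release the ADP. HSP90 acts later, on clients such as kinases and receptors, and HSP60 with HSP10 folds proteins inside mitochondria. Many of these genes are driven in stress by heat shock factor 1 (gene Hsf1), which binds inverted repeats of the unit GAA near their start sites.

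Hspa1a (ENSMUSG00000091971, GRCm38 chromosome 17, 34969190 to 34972156, minus strand) and Hspa1b (ENSMUSG00000090877, chromosome 17, 34956436 to 34959238, minus strand) encode the stress-inducible HSP70. They have 1 annotated exon each, and their start sites lie 12918 bases apart. The 150 bases before each start are shown because the results turn on this pair and the windows are nearly alike. Capitals mark the inverted heat shock units (GAANNTTC or TTCNNGAA, where N is any base, so that a match on one strand is a match on the other). Sequences are RefSeq's, GRCm38.p6, 5′ to 3′ on the gene's strand.
Hspa1a, chr17:34972157-34972306, minus strand: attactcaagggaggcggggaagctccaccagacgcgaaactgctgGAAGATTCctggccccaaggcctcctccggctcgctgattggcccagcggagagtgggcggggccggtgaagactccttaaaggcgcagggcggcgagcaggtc
Hspa1b, chr17:34959239-34959388, minus strand: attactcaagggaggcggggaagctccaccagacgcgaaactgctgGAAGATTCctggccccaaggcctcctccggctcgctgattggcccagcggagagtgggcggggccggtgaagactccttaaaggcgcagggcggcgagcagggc
These windows were identical at 149 of 150 bases (99.3%), and over 250 bases at 247 (98.8%). Both carried the repeat 104 to 97 bases before the start and a CCAAT box 67 to 63 bases before it. GENCODE M21 annotates no gene in either window.

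The repeat also lay before Hsph1, Dnaja1 and Hspe1, of which 30 bases are printed to show how its letters vary.
Hsph1, chr5:149636351-149636380, minus strand: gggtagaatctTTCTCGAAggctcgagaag
Dnaja1, chr4:40722333-40722362, plus strand: aaaagcctctaGAAAATTCtacgaggctcg
Hspe1, chr1:55088053-55088082, plus strand: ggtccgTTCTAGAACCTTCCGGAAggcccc
GENCODE places 26 bases of the Hsph1 window in its own first exon, in the UTR. It places the Dnaja1 window in an exon of Dnaja1 and of the opposite-strand Gm6297, and the Hspe1 window in an exon of Hspd1, in the UTR. RefSeq's start lies further downstream for Dnaja1. Of the 10 genes 7 matched the promoter table, and Hspa8, Hsp90aa1 and Hsp90ab1 did not. The repeat of 2 units was in 5 of these 7 and in 12.8% of all 32851 windows of 250 bases. Hspe1 alone of the 7 had a run of 3 units, which 0.466% of all windows hold. CCAAT was found, on either strand, in 4 of the 7 and in 33.8% of all windows, and TATAAA in 0 of the 7 and in 12.4% of all windows. For each member only the start farthest upstream was used, and there the windows of Dnajb1 and Hspd1 held no repeat. The promoter table holds 2 starts each for Dnajb1, Hspd1 and Hsph1 and 3 for Dnaja1. The shares of all windows count every start. These matches describe letters, not binding.

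Levels differed widely within the set, compared per gene length as TPM, which scales counts per length to the same sum in each library. In WT S1 and S2, Hsp90ab1 stood at 4662 and 4463 TPM, Hspa8 at 2884 and 3081, Hsp90aa1 at 1425 in both, and Dnajb1 at 1102 and 1086. Next came Hspa1b at 906 and 758 TPM, Hspd1 at 591.5 and 617, Hspe1 at 388 and 409 and Hspa1a at 323 and 263. Dnaja1 at 85.2 and 97.1 TPM and Hsph1 at 65.8 and 61.9 were lowest. No neighbours in this order overlapped. Lengths are the union of a gene's exons, which is long for Dnaja1 (8629 bases) and Hsph1 (7266 bases), so their TPM is low relative to a shorter expressed transcript. The 10 genes together held 1.565 and 1.56% of all counts in WT and 1.506 and 1.513% in WT_PRMT1. They held 1.062 to 1.207% in HOXA9_KO, Bcat_KO and PRMT1_KO, and 0.8385 and 0.9158% in dKO.

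**Figure D1:**
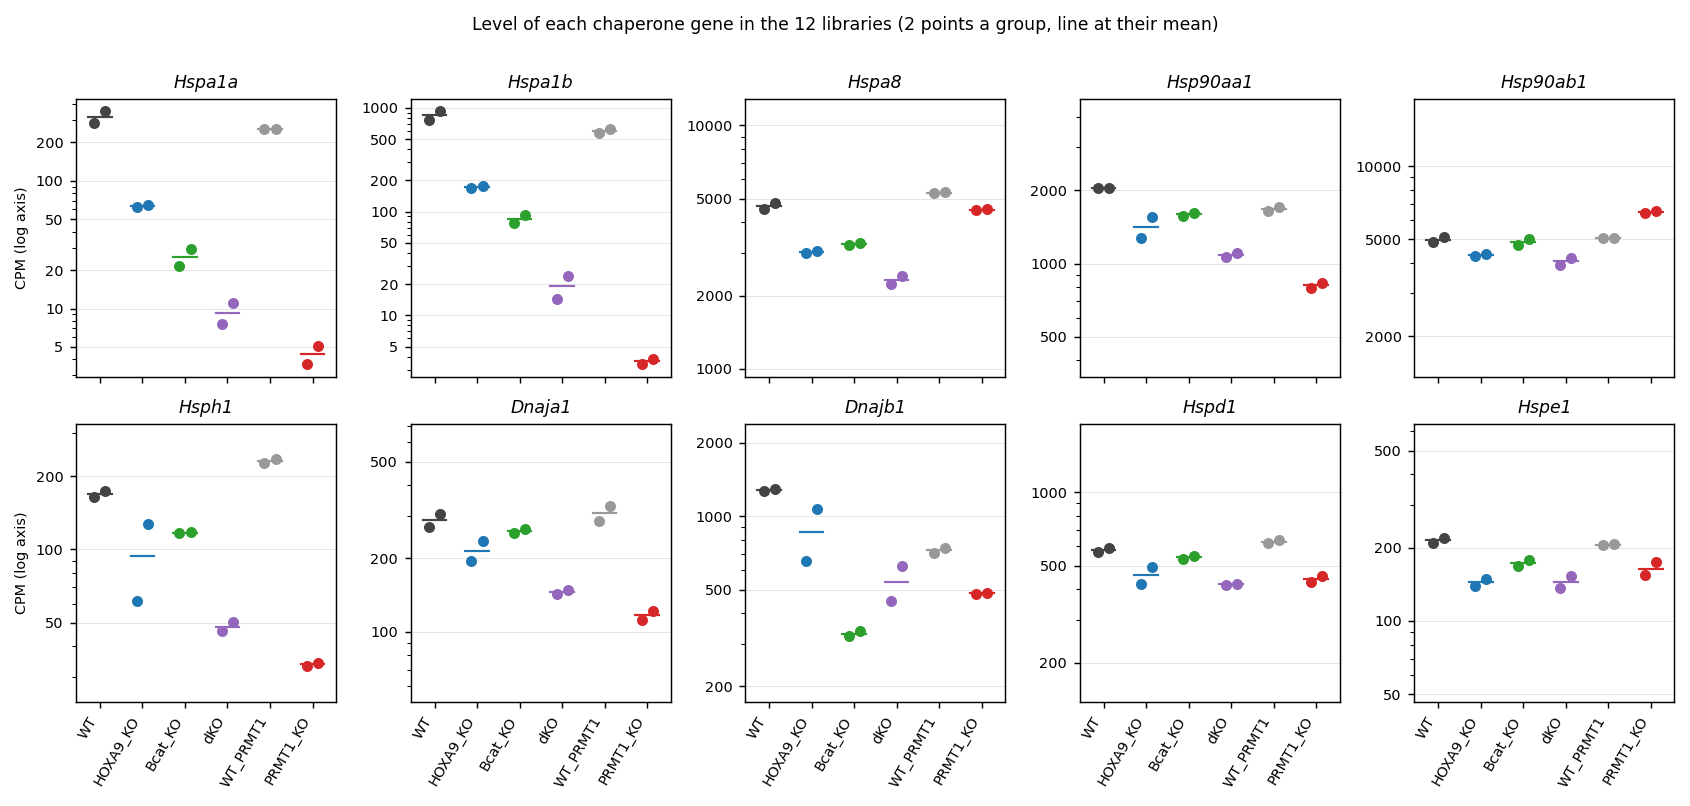
CPM (scaled by TMM, log axis) of each of the 10 genes in the 12 libraries; points are libraries and lines are the means of the 2 libraries of a group. Panels of genes that varied under 10-fold span equal log ranges. Hspa1a and Hspa1b stepped down from WT through HOXA9_KO and Bcat_KO to dKO, while Hsp90ab1 varied by 1.67-fold over all libraries.

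The inducible HSP70 pair varied most. Hspa1a was at 350.3 and 283.8 CPM (WT), 61.9 and 65.1 (HOXA9_KO), 29.1 and 21.6 (Bcat_KO), 11.0 and 7.59 (dKO), 257 and 253 (WT_PRMT1), and 3.68 and 5.08 (PRMT1_KO). Hspa1b was at 927 and 773 CPM (WT), 169 and 175 (HOXA9_KO), 92.9 and 76.9 (Bcat_KO), 24.0 and 14.4 (dKO), 629 and 578 (WT_PRMT1), and 3.80 and 3.39 (PRMT1_KO). No 2 groups overlapped for either gene, and both had the same order of groups, from WT and WT_PRMT1 down through HOXA9_KO, Bcat_KO and dKO to PRMT1_KO. The ratio of the highest to the lowest library was 95.3 for Hspa1a and 273.6 for Hspa1b.

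The share of the pair that was Hspa1a also differed. Hspa1a stood at 0.346 to 0.357 of the TPM of Hspa1b in the 4 WT and HOXA9_KO libraries, 0.296 and 0.265 (Bcat_KO), 0.433 and 0.497 (dKO), 0.386 and 0.414 (WT_PRMT1), and 0.914 and 1.42 (PRMT1_KO). In PRMT1_KO this rested on 60 and 114 counts of Hspa1a and 62 and 76 of Hspa1b. The transcripts are near copies: 60.3% of the 50-base stretches of Hspa1a occur in another gene's transcript, 58.8% in that of Hspa1b. The sources used here do not say how reads that match both were counted, so the split between them is uncertain, and values of the summed pair are given beside theirs. Hspa1a, unlike Hspa1b, also overlaps an opposite-strand gene, Gm20481, over 2225 bases, and that gene held 0 counts. Whether reads were counted by strand is unknown, and the part of this overlap in the split was not tested.

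**Figure D2:**
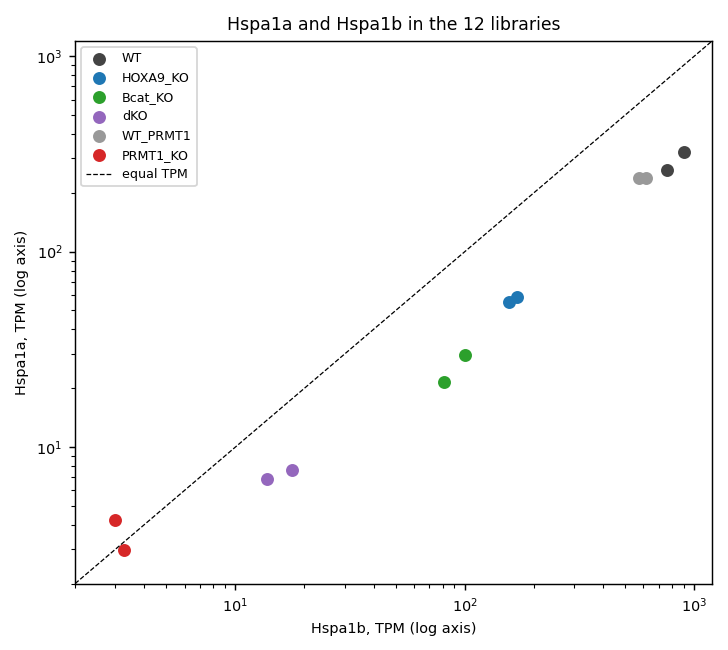
TPM of Hspa1a against Hspa1b (both axes log) in the 12 libraries, coloured by group, with a dashed line at equal TPM. The 10 libraries outside PRMT1_KO lie below the line, and of the 2 PRMT1_KO libraries, at the bottom left, S8 lies just below it (ratio 0.914) and S9 above it (1.42).

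In the comparisons behind the choice of genes, Hspa1a was lower in dKO than in WT by a log2 fold change of -5.09 ± 0.22 (SE, n = 2 a group), or 34.1-fold, and Hspa1b by -5.47 ± 0.22, or 44.2-fold. In PRMT1_KO against WT_PRMT1 the values were -5.85 ± 0.23 for Hspa1a and -7.39 ± 0.25 for Hspa1b. Summing the pair gave -5.37 in dKO and -6.74 in PRMT1_KO. Marker sums differed in PRMT1_KO against WT_PRMT1 too. Neutrophil markers were at 2304 and 1916 CPM against 680 and 743, and macrophage and monocyte markers at 796 and 757 against 288 and 299. Erythroid markers were at 52.0 and 46.4 against 662 and 589. The part of these markers in the values of the pair was not tested. Against WT, Hspa1a was at -2.32 ± 0.19 in HOXA9_KO and -3.65 ± 0.20 in Bcat_KO, and Hspa1b at -2.31 ± 0.19 and -3.32 ± 0.20. In dKO against HOXA9_KO they were at -2.77 ± 0.20 and -3.16 ± 0.20, and in dKO against Bcat_KO at -1.45 ± 0.20 and -2.14 ± 0.20. These share WT or dKO with the comparison used to choose the genes, so no test is given. The 2 control groups lay closer, with -0.31 ± 0.18 for Hspa1a and -0.50 ± 0.18 for Hspa1b in WT_PRMT1 against WT.

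Bcat_KO against HOXA9_KO shares no library with the comparisons used for the choice, so the pair could be tested there. Both genes were lower in Bcat_KO: Hspa1a fell by 1.33 ± 0.19 on the log2 scale, or 2.51-fold (edgeR quasi-likelihood, adjusted p = 0.001443), and Hspa1b fell by 1.02 ± 0.19, or 2.03-fold (adjusted p = 0.00497). The summed pair fell by 1.08 (adjusted p = 0.002874). All genes tested had a median log2 change of -0.06, and 10.5% were called lower (adjusted p under 0.05, Benjamini-Hochberg over all genes) and 5.98% higher. The adjusted p of the pair stayed under 0.05 in all 13 alternatives run, reaching 0.01167 for Hspa1a and 0.0403 for Hspa1b. Marker sums moved with this comparison: B cell markers were at 73.0 and 70.7 CPM (Bcat_KO) and 190 and 386 (HOXA9_KO), neutrophil markers at 19.0 and 31.4 against 75.1 and 1136 (3 of the 10 genes were at 0 in each Bcat_KO library and none in HOXA9_KO), megakaryocyte and platelet markers at 215 and 224 against 379 and 552, and erythroid markers at 33.9 and 22.1 against 260.8 and 158.6. Their part in the result was not tested, nor was that of the Xist and library differences of Bcat_KO given above. Here, as in all bulk samples, fewer cells of a type and less RNA per cell cannot be told apart.

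Both genes have no intron, so unspliced or genomic signal would be counted in them too. The 1466 receptor genes for odours and pheromones (olfactory and vomeronasal), not genes of blood cells, were highest in WT S1, at 0.0303 CPM per kilobase, and lowest in Bcat_KO S4, at 0.00202. The 4 controls (0.0226 to 0.0303) all lay above the 8 knockouts (0.00202 to 0.0155), the direction in which the pair also split them. Among the knockouts Bcat_KO stood apart, at 0.00263 and 0.00202, and the others lay at 0.0106 to 0.0155. The pair had another order within the knockouts, with PRMT1_KO lowest. The part of such signal in the values of the pair was not tested. Hspa1a and Hspa1b were at 118 and 331 CPM per kilobase in WT S1, and their lowest values were 1.24 and 1.21, in PRMT1_KO.

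The constitutive HSC70 gene Hspa8 (ENSMUSG00000015656, chromosome 9, 40800984 to 40810087, plus strand), the main HSP70 of unstressed cells, was lower in all 3 groups of the β-catenin and Hoxa9 experiment. It was at 4527 and 4821 CPM (WT), 3050.4 and 3001 (HOXA9_KO), 3229.6 and 3285 (Bcat_KO), 2407 and 2241 (dKO), 5339 and 5258 (WT_PRMT1), and 4542 and 4486 (PRMT1_KO). WT lay above HOXA9_KO and Bcat_KO, and both lay above dKO, with no overlap. Hspa8 fell by 0.63 ± 0.06 in HOXA9_KO (edgeR adjusted p = 0.0001175) and by 0.52 ± 0.06 in Bcat_KO (adjusted p = 0.0003508) against WT. It fell by 0.49 ± 0.06 in dKO against Bcat_KO (adjusted p = 0.0002228). In dKO against HOXA9_KO it fell by 0.38 ± 0.06 (adjusted p = 0.01482), a call lost without HOXA9_KO S5 (0.05794) and when only these 2 groups were fitted (0.4045). The change against WT in dKO was -1.01 ± 0.06, and that in PRMT1_KO against WT_PRMT1 was -0.23 ± 0.06.

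The HSP90 genes differed from each other. Hsp90aa1 (ENSMUSG00000021270, chromosome 12, 110690605 to 110702728, minus strand), the inducible HSP90 alpha, was at 2045 and 2037 CPM (WT), 1550.2 and 1277 (HOXA9_KO), 1572 and 1610.4 (Bcat_KO), 1102 and 1062 (dKO), 1638 and 1709.6 (WT_PRMT1), and 797 and 835 (PRMT1_KO). It was lower in every knockout library than in the libraries of its control. It fell by 0.53 ± 0.08 in HOXA9_KO (edgeR adjusted p = 0.003739) and by 0.36 ± 0.08 in Bcat_KO (0.0165), and the call in Bcat_KO was lost without any 1 of the 4 libraries (0.06488 to 0.07539). In dKO it fell by 0.56 ± 0.08 against Bcat_KO (adjusted p = 0.0008864) and stood at -0.39 ± 0.08 against HOXA9_KO (0.0534). The values in the comparisons behind the choice were -0.92 ± 0.08 in dKO and -1.04 ± 0.08 in PRMT1_KO.

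Hsp90ab1 (ENSMUSG00000023944, chromosome 17, 45567775 to 45573271, minus strand), the constitutive HSP90 beta, was at 5103 and 4869 CPM (WT), 4358 and 4263 (HOXA9_KO), 4764 and 5006 (Bcat_KO), 3933 and 4215 (dKO), 5065 and 5076 (WT_PRMT1), and 6436 and 6569 (PRMT1_KO). It was the only one of the 10 genes that stood higher in PRMT1_KO than in WT_PRMT1, by 0.36 ± 0.06, and it did so with library totals as the scale too (0.22). Against WT it stood at -0.21 ± 0.06 in HOXA9_KO (edgeR adjusted p = 0.0552) and -0.03 ± 0.06 in Bcat_KO (0.7675; 0.02 when scaled by library totals), and at -0.29 ± 0.06 in dKO. It fell by 0.26 ± 0.06 in dKO against Bcat_KO (adjusted p = 0.006137; 0.1314 without Bcat_KO S4). It was higher in Bcat_KO than in HOXA9_KO by 0.18 ± 0.06 (0.04905), a call lost without any 1 library (0.1033 to 0.3739).

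Hsph1 (ENSMUSG00000029657, chromosome 5, 149614287 to 149636376, minus strand) encodes HSP110, a nucleotide exchange factor of HSP70. It was at 174.5 and 163.6 CPM (WT), 127 and 61.6 (HOXA9_KO), 116 and 118 (Bcat_KO), 50.4 and 46.1 (dKO), 227 and 234 (WT_PRMT1), and 33.2 and 34.3 (PRMT1_KO). The HOXA9_KO libraries stood far apart, and those of the other groups were close. It fell by 1.28 ± 0.24 in dKO against Bcat_KO (edgeR adjusted p = 0.0028). It stood at -0.84 ± 0.23 in HOXA9_KO (0.06428; -1.45 and called without HOXA9_KO S4, adjusted p = 2.32e-05, and -0.41 and called without HOXA9_KO S5, 0.04308), -0.53 ± 0.23 in Bcat_KO (0.1411) and -0.96 ± 0.24 in dKO against HOXA9_KO (0.08746). After the inducible pair it had the largest differences of the set in the comparisons behind the choice, -1.81 ± 0.24 in dKO and -2.77 ± 0.25 in PRMT1_KO.

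The J-domain genes, which encode partners of HSP70, followed different patterns. Dnaja1 (ENSMUSG00000028410, chromosome 4, 40722150 to 40737149, plus strand) was at 268 and 305 CPM (WT), 236 and 195 (HOXA9_KO), 253.5 and 264 (Bcat_KO), 142 and 149 (dKO), 284 and 329 (WT_PRMT1), and 112 and 122 (PRMT1_KO). The 4 libraries of dKO and PRMT1_KO lay below all others. It fell by 0.83 ± 0.11 in dKO against Bcat_KO (edgeR adjusted p = 0.0004708). Against HOXA9_KO it fell by 0.56 ± 0.11 (0.03902), and this call was lost without HOXA9_KO S4 (0.2075), dKO S6 (0.0787) or dKO S7 (0.1156). Against WT it stood at -0.41 ± 0.11 in HOXA9_KO (0.05417), -0.15 ± 0.11 in Bcat_KO (0.3863) and -0.98 ± 0.11 in dKO, and in PRMT1_KO at -1.39 ± 0.11. Dnaja1 overlaps the opposite-strand gene Smu1 over 608 bases, and whether reads were counted by strand is unknown.

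Dnajb1 (ENSMUSG00000005483, chromosome 8, 83608193 to 83612653, plus strand), which encodes HSP40, had its lowest level in Bcat_KO. It was at 1289 and 1266 CPM (WT), 653 and 1074 (HOXA9_KO), 322 and 338 (Bcat_KO), 447 and 623 (dKO), 737 and 709.6 (WT_PRMT1), and 483 and 481 (PRMT1_KO). Both Bcat_KO libraries lay below all 10 others. Dnajb1 fell by 1.95 ± 0.20 in Bcat_KO against WT, or 3.87-fold (edgeR adjusted p = 0.0002348), and by 1.39 ± 0.20 against HOXA9_KO (0.001422). In dKO it was higher than in Bcat_KO by 0.70 ± 0.19 (0.02175), opposite to the other members in that comparison, but this call was lost without Bcat_KO S3 (0.08297), Bcat_KO S4 (0.06548) or dKO S7 (0.1453). It was lower in WT_PRMT1 than in WT by 0.82 ± 0.19 (0.02882), which did not pass when any 1 library of the 4 was left out (0.1039 to 0.1476). The HOXA9_KO libraries were split in the opposite sense to Hsph1, S5 being higher for Dnajb1 and lower for Hsph1, and these libraries also differed in neutrophil markers, 75.1 CPM in S4 and 1136 in S5; the part of this was not tested.

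Hspd1 (ENSMUSG00000025980, chromosome 1, 55077835 to 55088243, minus strand) and Hspe1 (ENSMUSG00000073676, chromosome 1, 55088132 to 55091307, plus strand), the mitochondrial HSP60 and HSP10, are transcribed away from each other from starts 111 bases apart and overlap by 112 bases. The sources used here do not say whether reads were counted by strand. Hspd1 was at 570.4 and 593 CPM (WT), 492 and 420.1 (HOXA9_KO), 546.5 and 534 (Bcat_KO), 416 and 422 (dKO), 616.5 and 634 (WT_PRMT1), and 428 and 452 (PRMT1_KO). Hspe1 was at 209 and 219.5 CPM (WT), 148 and 139.5 (HOXA9_KO), 168 and 178 (Bcat_KO), 153 and 137 (dKO), 205 and 207 (WT_PRMT1), and 174 and 154 (PRMT1_KO). Both lay below their controls in every knockout library, and their whole range was 1.523-fold and 1.603-fold.

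Hspe1 fell by 0.57 ± 0.09 in HOXA9_KO against WT (edgeR adjusted p = 0.003019) and by 0.31 ± 0.09 in Bcat_KO (0.03577), the second call being lost without any 1 of the 4 libraries (0.08706 to 0.188). Hspd1 fell by 0.35 ± 0.08 in HOXA9_KO (0.02626), which did not pass when WT S1 (0.1009), WT S2 (0.1965) or HOXA9_KO S5 (0.1534) was left out, and stood at -0.11 ± 0.08 in Bcat_KO (0.3907). In dKO against Bcat_KO, Hspd1 fell by 0.37 ± 0.08 (0.006608; 0.05589 without Bcat_KO S3) and Hspe1 by 0.26 ± 0.09 (0.04757), which was lost without Bcat_KO S3 (0.1235), Bcat_KO S4 (0.2921) or dKO S7 (0.2798). Against HOXA9_KO neither passed the test, with -0.12 ± 0.08 for Hspd1 (0.6127) and 0.01 ± 0.09 for Hspe1 (0.9794), and the libraries of the 2 groups overlapped for both. In the comparisons behind the choice Hspd1 was at -0.47 ± 0.08 in dKO and -0.51 ± 0.08 in PRMT1_KO, and Hspe1 at -0.56 ± 0.09 and -0.33 ± 0.09.

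**Figure D3:**
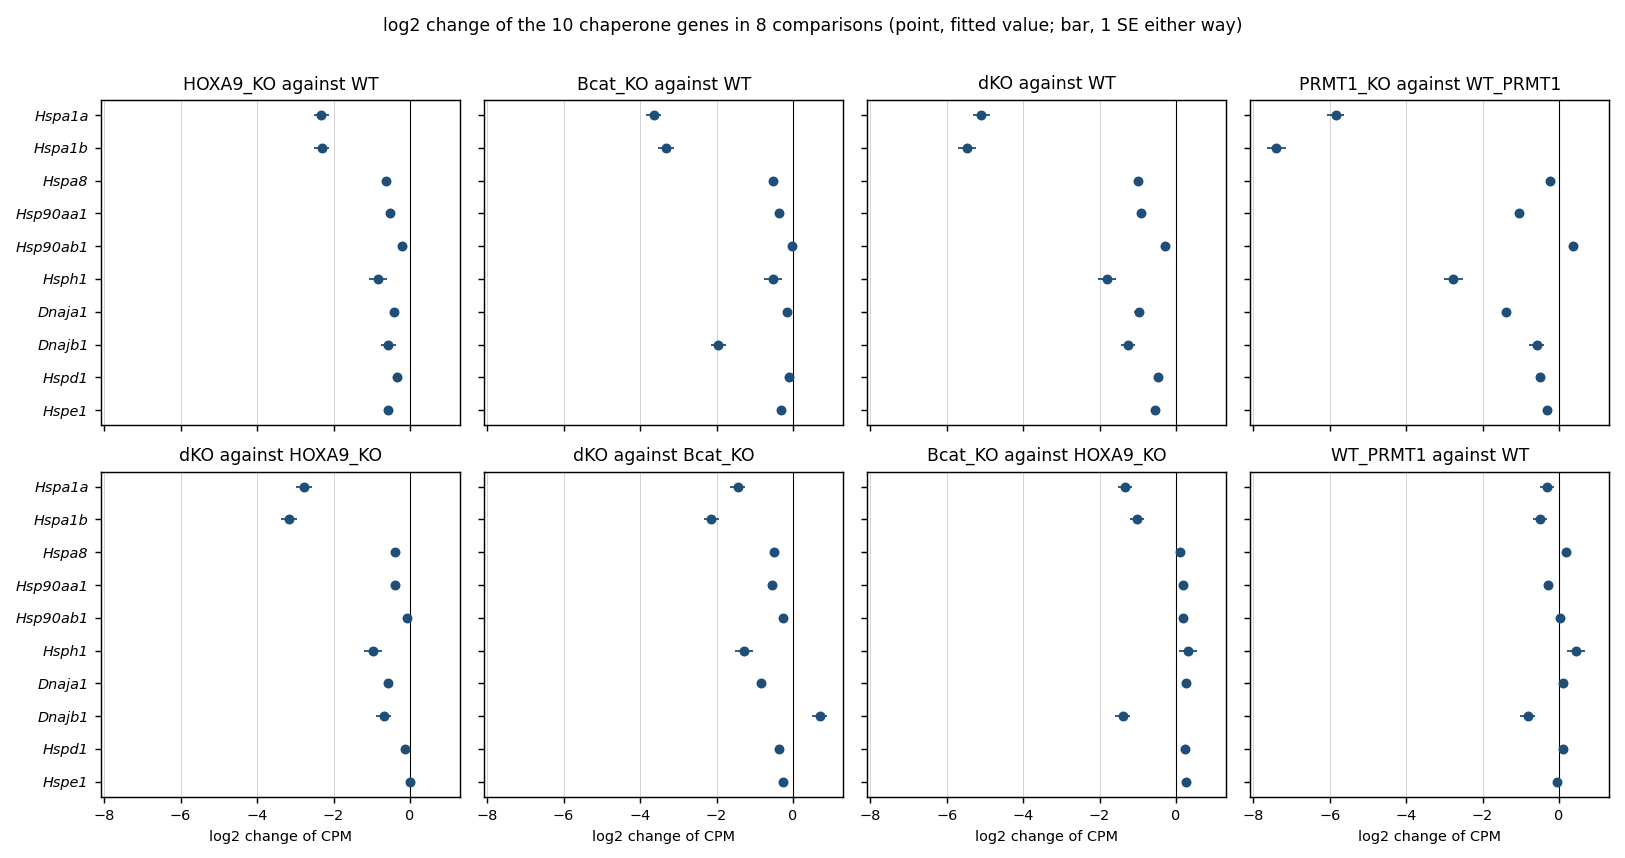
Fitted log2 change of CPM of the 10 genes (points) with 1 SE either way (bars) in 8 comparisons, n = 2 libraries a group. The inducible pair lies far left of the other 8 genes in the 4 comparisons of a knockout with its control, and Dnajb1 is the only gene right of zero in dKO against Bcat_KO.

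Counted over the 8 genes outside the inducible pair, 4 were called lower and 0 higher in HOXA9_KO against WT (Hspa8, Hsp90aa1, Hspd1 and Hspe1), where 1.71% of all genes were called lower and 3.62% higher. In Bcat_KO against WT 4 were called lower (Hspa8, Hsp90aa1, Dnajb1 and Hspe1) and 0 higher, against 9.01% and 6.69% of all genes, and only 2 of the 4 calls held without any 1 library. Both comparisons share WT with dKO against WT, which was used for the choice. Those of dKO against HOXA9_KO and against Bcat_KO share the dKO libraries with it. In dKO against HOXA9_KO 2 were lower, against 1.00% of all genes lower and 0.240% higher. In dKO against Bcat_KO 7 were lower and 1 higher, against 11.5% lower and 15.9% higher, and 5 to 8 were called when 1 library was left out. Marker sums of other cell types moved with this comparison: neutrophil markers were at 2312 and 1491.5 CPM in dKO against 19.0 and 31.4 in Bcat_KO, megakaryocyte and platelet markers at 841 and 522 against 215 and 224, and erythroid markers at 112 and 397 against 33.9 and 22.1. Their part in it was not tested. In Bcat_KO against HOXA9_KO 1 of the 8 was lower (Dnajb1) and 1 higher (Hsp90ab1), or 3 and 1 of all 10, against 10.5% of all genes lower and 5.98% higher. In WT_PRMT1 against WT 1 was lower, against 3.21% of all genes lower and 3.45% higher.

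The median log2 change of the 8 genes was -0.55 in HOXA9_KO and -0.33 in Bcat_KO against WT, -0.38 in dKO against HOXA9_KO, -0.43 in dKO against Bcat_KO and 0.21 in Bcat_KO against HOXA9_KO. The median of all genes in these comparisons lay between -0.06 and 0.06. In dKO against WT all 10 genes were called lower, beside 7.86% of all genes lower and 8.60% higher, and in PRMT1_KO against WT_PRMT1 9 were called lower and 1 higher, beside 15.6% and 16.1%; these counts come from the comparisons used for the choice, and nothing is read from them.

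Hsf1, the main stress activator of these genes, was at 62.7 and 66.4 CPM (WT), 65.5 and 58.6 (HOXA9_KO), 62.1 and 75.2 (Bcat_KO), 51.4 and 55.3 (dKO), 59.1 and 67.7 (WT_PRMT1), and 32.8 in both PRMT1_KO libraries. It stood at -0.06 ± 0.11 in HOXA9_KO (edgeR adjusted p = 0.8632) and 0.09 ± 0.11 in Bcat_KO (0.6386), while PRMT1_KO was the only group clearly below the others, at -0.95 ± 0.12 from WT_PRMT1. It fell by 0.36 ± 0.11 in dKO against Bcat_KO (0.03539), a call lost without Bcat_KO S4 (0.3292), dKO S6 (0.1699) or dKO S7 (0.08053). Hsf2, a related factor, was low, at 7.84 to 19.8 CPM over all libraries, and no difference of it passed the test (edgeR adjusted p from 0.1094, in dKO against Bcat_KO, to 0.9738, in HOXA9_KO against WT).

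Of 21 other genes known as heat shock factor targets, all passed the filter. Their counts stand beside 3.62% of all genes called higher and 1.71% lower in HOXA9_KO against WT. In HOXA9_KO against WT 8 fell and 0 rose, with a median of -0.28, and 1 to 6 were called when a library was left out, the fewest without WT S1. Zfand2a, a stress-induced proteasome adaptor, was at 96.5 and 94.1 CPM (WT), 42.5 and 45.1 (HOXA9_KO), 44.8 and 41.7 (Bcat_KO), 38.6 and 32.6 (dKO), 52.9 and 45.1 (WT_PRMT1), and 38.1 and 41.1 (PRMT1_KO). It fell by 1.12 ± 0.11 in HOXA9_KO (edgeR adjusted p = 0.0002527) and by 1.14 ± 0.11 in Bcat_KO (0.0002097). Hspb1, the small heat shock protein HSP27, was at 31.2 and 16.8 CPM (WT), 3.93 and 6.07 (HOXA9_KO), 1.21 and 1.84 (Bcat_KO), 2.71 and 1.75 (dKO), 12.7 and 12.2 (WT_PRMT1), and 1.23 and 1.78 (PRMT1_KO). All knockout libraries lay below all controls for Hspb1, which fell by 3.97 ± 0.405 in Bcat_KO (0.0002348).

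In Bcat_KO against WT 7 of the 21 fell and 1 rose, with a median of -0.19, and 5 to 7 were called when a library was left out. Dnajb4, a J-domain gene like Dnajb1, was at 155 and 139 CPM (WT), 115 and 108 (HOXA9_KO), 51.0 and 46.1 (Bcat_KO), 94.4 and 107 (dKO), 64.9 and 63.5 (WT_PRMT1), and 48.2 and 50.4 (PRMT1_KO). It fell by 1.60 ± 0.10 in Bcat_KO (edgeR adjusted p = 5.606e-06), was lower there than in HOXA9_KO by 1.199 ± 0.09 (5.257e-05) and higher in dKO than in Bcat_KO by 1.05 ± 0.09 (5.639e-05). Dnajb4 thus had the same order of these 4 groups as Dnajb1, with Bcat_KO lowest. Bag3, an HSP70 exchange factor, fell by 0.92 ± 0.15 in Bcat_KO (0.003039) and was higher in dKO than in Bcat_KO by 0.73 ± 0.15 (0.004688). In Bcat_KO against WT 6.69% of all genes were called higher and 9.01% lower. Over the list, Bcat_KO against HOXA9_KO gave 5 higher and 3 lower (5.98 and 10.5% of all genes). The numbers were 4 and 4 in dKO against Bcat_KO (15.9 and 11.5%) and 0 and 1 in dKO against HOXA9_KO (0.240 and 1.00%). In WT_PRMT1 against WT they were 1 and 4 (3.45 and 3.21%).

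In the 2 comparisons behind the choice, the 21 targets had medians of -0.33 in dKO (0 called higher, 10 lower) and -0.38 in PRMT1_KO (2 higher, 13 lower). Of all genes, 8.60% were called higher and 7.86% lower in dKO, and 16.1% and 15.6% in PRMT1_KO. The largest differences were Hspb1 (-3.43 ± 0.40) and Zfand2a (-1.42 ± 0.11) in dKO, and Serpinh1 (-3.44 ± 0.40) and Hspb1 (-3.03 ± 0.40) in PRMT1_KO. Serpinh1, a collagen chaperone, was at 46.4 and 52.2 CPM in WT_PRMT1 and 2.07 to 10.8 elsewhere. The stromal and endothelial markers (8 of 8 detected in WT_PRMT1) summed to 394 and 669 CPM in WT_PRMT1 and 91.2 to 170.4 elsewhere, and their part in the Serpinh1 value was not tested.

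**Figure D4:**
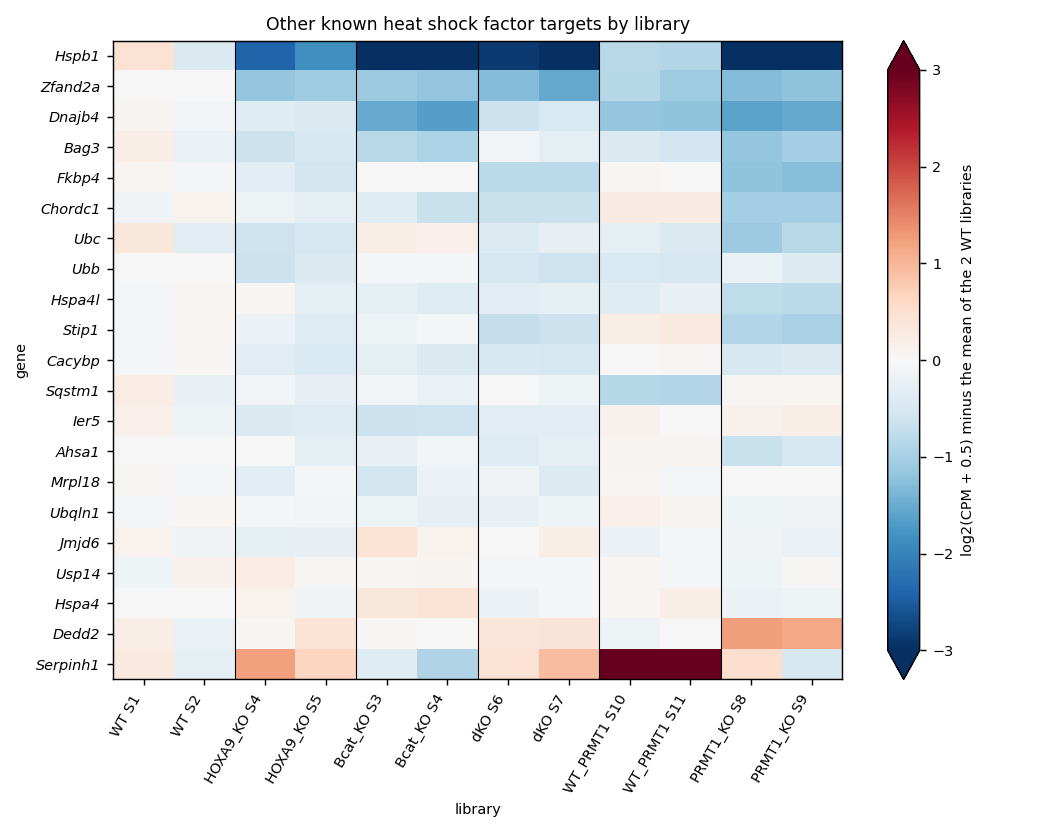
log2(CPM + 0.5) of 21 other known heat shock factor targets minus the mean of the 2 WT libraries, by library (blue lower, red higher; the colour scale ends at 3 either way). Hspb1 and Zfand2a are blue in every knockout library and also, for Hspb1 more faintly, in both WT_PRMT1 libraries (-0.831 and -0.881 for Hspb1, -0.844 and -1.071 for Zfand2a). Dnajb4 is darker in Bcat_KO than in dKO, and Serpinh1 is highest in WT_PRMT1 (3.292 and 3.462), the next library being HOXA9_KO S4 (1.241).

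The gene lists share members, so their counts are not independent. Fkbp4, Stip1, Ahsa1 and Chordc1 of the HSP90 list, for example, are also among the other heat shock factor targets above. Of 16 genes of the HSP90 family and its co-chaperones outside the set, 0 rose and 1 fell in HOXA9_KO against WT. Of all genes, 3.62% rose and 1.71% fell there. In Bcat_KO against WT 0 rose and 2 fell (6.69 and 9.01% of all genes). In dKO against HOXA9_KO the numbers were 0 and 2 (0.240 and 1.00%), and in dKO against Bcat_KO 0 and 6 (15.9 and 11.5%). In Bcat_KO against HOXA9_KO they were 3 and 0 (5.98 and 10.5%), and in WT_PRMT1 against WT 2 and 0 (3.45 and 3.21%). Fkbp4, the steroid receptor co-chaperone FKBP52, was at 568 and 526 CPM (WT), 433 and 376 (HOXA9_KO), 550.4 and 552 (Bcat_KO), 309.7 and 310.3 (dKO), 571 and 552 (WT_PRMT1), and 238 and 226 (PRMT1_KO). It was lower in dKO than in Bcat_KO by 0.83 ± 0.08 (edgeR adjusted p = 8.174e-05) and higher in Bcat_KO than in HOXA9_KO by 0.45 ± 0.08 (0.00431). Stip1, the adaptor HOP that joins HSP70 and HSP90, fell by 0.57 ± 0.09 in dKO against Bcat_KO (0.001011). In the comparisons behind the choice the list had 0 higher and 8 lower in dKO (median -0.36), beside 8.60 and 7.86% of all genes. It had 1 higher and 10 lower in PRMT1_KO (median -0.66), beside 16.1 and 15.6%. Ppid (CYP40, a co-chaperone) stood at -1.76 ± 0.09 in PRMT1_KO.

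Of 11 other HSP70 and HSP110 genes measured, 1 rose and 0 fell in HOXA9_KO against WT, 3 and 0 in Bcat_KO against WT (0 to 3 higher over the alternatives), 0 and 0 in dKO against HOXA9_KO, 0 and 4 in dKO against Bcat_KO, 3 and 0 in Bcat_KO against HOXA9_KO and 1 and 0 in WT_PRMT1 against WT. In the comparisons behind the choice, 1 was higher and 1 lower in dKO, and 1 higher and 5 lower in PRMT1_KO. Of all genes, 15.9% were called higher and 11.5% lower in dKO against Bcat_KO, and 5.98% and 10.5% in Bcat_KO against HOXA9_KO. The shares in the other comparisons are those given with the HSP90 list. Hyou1, the HSP110 of the endoplasmic reticulum, was higher in Bcat_KO than in HOXA9_KO by 0.60 ± 0.10 (edgeR adjusted p = 0.00298) and lower in dKO than in Bcat_KO by 0.66 ± 0.10 (0.0008864). Hspa1l, whose start lies 547 bases from that of Hspa1a on the opposite strand, was at 0 to 0.847 CPM. Of 12 exchange factors and adaptors of HSP70, 0 rose and 2 fell in HOXA9_KO (3.62 and 1.71% of all genes). In Bcat_KO 0 rose and 1 fell (6.69 and 9.01% of all genes), both groups being set against WT. Of 5 small heat shock protein genes that passed the filter (of 9 listed), Hspb1 was the 1 called in each of these comparisons.

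Immediate early genes, which rise when cells are handled and can rise together with heat shock genes, moved both ways. Of 26 measured, 1 rose and 2 fell in HOXA9_KO against WT (3.62 and 1.71% of all genes). In Bcat_KO against WT 1 rose and 6 fell (6.69 and 9.01%), and in dKO against HOXA9_KO 0 and 1 (0.240 and 1.00%). The numbers were 6 and 2 in dKO against Bcat_KO (15.9 and 11.5%) and 2 and 5 in Bcat_KO against HOXA9_KO (5.98 and 10.5%). In WT_PRMT1 against WT 4 rose and 5 fell (3.45 and 3.21%). In dKO against WT 4 were higher and 3 lower (8.60 and 7.86%), and in PRMT1_KO against WT_PRMT1 7 and 7 (16.1 and 15.6%). Together they summed to 24727 to 27512 CPM in the 4 control libraries and to 23772 to 29260 in the 8 knockout libraries, so the ranges of the sum overlapped. The counts of these genes varied over the alternatives, and their part in the chaperone values was not tested.

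Within the set, Hspa1a and Hspa1b were the most alike over the 12 libraries (Pearson r of log2 CPM 0.9816), followed by Dnaja1 with Hsph1 (0.9704) and Hsp90aa1 with Dnaja1 (0.959). The coefficients of Hsp90ab1 with the other members ran from -0.3512 with Hspa1b to 0.7069 with Hspa8. Across 10952 other protein coding genes, the patterns most like the summed pair were those of Strbp (0.9864), Pcna (0.9846, the replication clamp), Kansl1l (0.9792), Dnajc9 (0.9761, a J-domain protein that also binds histones) and Cdk4 (0.9735, a cell cycle kinase). For Hsp90aa1 they were Thoc5, Pcbp1, Ran, Bok and Zcchc7 (0.965 to 0.9715), and for Hspd1 Them6, Shisa8, Mcm6, Kcng1 and Phgdh (0.9367 to 0.9551). The libraries form 6 groups of 2 and share controls, depth and the sex-typed split, so these coefficients mostly restate the order of the group means and carry no test.

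The genes differ in how well short reads can be told from their copies. Besides the inducible pair, 73.2% of the 50-base stretches of Hspa8, 58.5% of Hsp90aa1, 44.8% of Hspd1, 36.1% of Hspe1 and 18.7% of Dnaja1 occur in transcripts of other genes, mostly processed pseudogenes. The figures for Hsp90ab1, Dnajb1 and Hsph1 are 4.5, 0.4 and 0%. The copy sharing most with each of these genes held at most 0.44% of the gene's own counts, so few reads were counted to these copies, while reads matching more than 1 place may have been dropped.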

How the data were processed

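RNA was measured in 12 LSK libraries, 2 in each of 6 groups. The values used are whole-number read counts per gene, deposited by the authors. The tools behind them, per the submitters' processing notes, were Trim Galore 0.6.6 for trimming, STAR 2.7.6a for alignment and featureCounts for counting, on GRCm38. For the annotation release, the strand setting and multi-mapping reads, nothing was given in the sources used here. Gene lengths come from the deposited table's length column. Of 55471 gene identifiers 55230 matched GENCODE M21, and the rest held 0.0044% of counts. Even values made up 67.1 to 75.9% of nonzero counts, so both mates of a pair appear to have been counted.

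The quasi-likelihood test of edgeR 4.0.16 (R 4.3.3) was used on these counts: filterByExpr at a minimum count of 10, TMM scaling and 1 fit of all 12 libraries with a mean per group, leaving 6 residual degrees of freedom. CPM are scaled by TMM and TPM are not. A call is an adjusted p (Benjamini-Hochberg over 17063 genes, two-sided) under 0.05, and SE is the absolute log2 change over the square root of F. The fit was first tested on simulated counts. Likeness used log2 CPM with a prior count of 2. Alternatives were RLE factors, library totals, no low-count filter, only genes with a mean over 5 CPM, DESeq2 1.42.0, limma-voom (limma 3.58.1), fits of only the groups compared, the inducible pair summed, each library left out, and, chosen after seeing the data, a robust fit. Figures used matplotlib 3.10.9.

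The members, the gene lists and the tests were chosen with earlier results of these data known. Named genes were all members, Hsf1, Hsf2, the targeted genes, up to 4 genes of a list with the smallest p in a comparison, or the 2 largest changes (mean of at least 2 CPM) in the comparisons behind the choice, and the 5 genes most alike in pattern to the pair, Hsp90aa1 and Hspd1. Promoter windows are RefSeq's (GRCm38.p6).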

Additional observations from a re-analysis of the deposited data

Results flagged for a closer look

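The changes in the β-catenin and Hoxa9 knockouts differed for 4 of the 10 genes, by the direct test of Bcat_KO against HOXA9_KO. That test equals the difference of the changes of the knockouts from the same WT. Of all genes, 10.5% were called lower and 5.98% higher in it. The log2 differences were -1.327 for Hspa1a, -1.0185 for Hspa1b and -1.3875 for Dnajb1, all lower in Bcat_KO, and 0.1804 for Hsp90ab1, higher in Bcat_KO (edgeR adjusted p = 0.001443, 0.00497, 0.001422 and 0.04905). Every library of one group lay beyond both of the other for these genes. This held for 9 of the 10 members in this comparison, so it does not set the 4 apart, and its share over all genes was not computed. The call of Hsp90ab1 was lost without any 1 library.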

How the results depend on the processing

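No paired analysis was possible because the columns of the table carry S tags and no replicate number. Of the values of single members under an alternative, 893 kept their direction and their side of the threshold (or moved by under 1 SD where no test was made), 43 lost a call, 58 gained one, 37 moved and 9 changed sign, all 9 being values without a call. These 9 were Hsp90ab1 in Bcat_KO against WT (0.0164 by library totals), Hspe1 in dKO against HOXA9_KO (-0.0233 by library totals; -0.0764 to 0.0859 with a library left out), and, over the libraries left out, Hspd1 in dKO against HOXA9_KO (-0.216 to 0.0132), Hsph1 in Bcat_KO against HOXA9_KO (-0.1344 to 0.9182), Dnaja1 in WT_PRMT1 against WT (-0.0251 to 0.201) and Hsp90ab1 there (-0.0046 to 0.0437). The causes were not tested.

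Members called, with the main count first, were as follows. Calls over all genes changed with the setting too, and their counts are given after those of the 21 other targets below. In HOXA9_KO against WT 4 of 8 were called, 8 with no filter, 7 by DESeq2, 8 by limma-voom and 3 to 6 with a library left out. In Bcat_KO against WT 4 were called, and 2 whichever library was left out. In dKO against HOXA9_KO 2 were called, 5 with no filter, 4 by DESeq2, 0 when edgeR was fitted to only these groups and 1 to 3 with a library left out. In dKO against Bcat_KO 8 were called, and 5 to 8 with a library left out. In Bcat_KO against HOXA9_KO 4 of 10 were called, 7 by DESeq2 and 3 to 6 with a library left out. In WT_PRMT1 against WT 1 was called, 4 with no filter, 2 with the filter at 5 CPM, 3 by DESeq2, limma-voom and the fit of only these groups, and 0 with any library left out. The median change of the 10 was -0.99 in dKO against WT (-1.0537 to -0.9141 with a library left out) and -0.81 in PRMT1_KO against WT_PRMT1 (-0.9516 by library totals, which moved the median of all genes there from -0.03 to -0.17 and the share of calls that were higher to 36%).

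Of the 21 other targets, 8 were called in HOXA9_KO against WT, 4 when only these groups were fitted and 1 to 6 with a library left out. In Bcat_KO against WT 8 were called, and 5 to 7 with a library left out. In dKO against HOXA9_KO 1 was called, 0 with RLE factors, the filter at 5 CPM and only these groups, 4 with no filter, 3 by DESeq2 and the robust fit, and 0 to 1 with a library left out. In Bcat_KO against HOXA9_KO 8 were called, and 5 to 6 with a library left out, and in WT_PRMT1 against WT 5, or 8 when only these groups were fitted. Counts over all genes moved too. In HOXA9_KO against WT limma-voom called 795 genes higher and 449 lower, beside 618 and 291 in the main fit. In Bcat_KO against HOXA9_KO DESeq2 called 1511 higher and 2202 lower, beside 1020 and 1798. In WT_PRMT1 against WT the filter at 5 CPM gave 625 higher and 613 lower, beside 589 and 547. The counts that moved by more than 1.5 times are given as totals of both directions. They were 909 in HOXA9_KO against WT (1560 with no filter, 1644 by DESeq2, 321 to 724 with a library left out) and 2680 in Bcat_KO against WT (988 to 1597 with a library left out). In dKO against HOXA9_KO they were 212 (820 with no filter, 611 by DESeq2, 0 with only these groups, 66 to 360 with a library left out), in dKO against Bcat_KO 4669 (2655 with only these groups, 2855 to 3480 with a library left out) and in Bcat_KO against HOXA9_KO 2818 (1476 with only these groups, 1425 to 1892 with a library left out). In WT_PRMT1 against WT they were 1136 (1743 with no filter, 1872 by DESeq2, 1832 by limma-voom, 1991 with only these groups, 403 to 447 with a library left out), and in dKO against WT 2808 (1403 to 2617 with a library left out). A group reduced to 1 library was assumed to vary like the others. Depth limited the split of the inducible pair in PRMT1_KO most, at 60 to 114 counts a gene.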

Other observations

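Of 21 chaperones of the endoplasmic reticulum and genes of the unfolded protein response, 4 rose and 1 fell in Bcat_KO against WT, with a median of 0.05, where 6.69% of all genes were called higher and 9.01% lower. The higher calls numbered 1 to 5 over the alternatives. Against HOXA9_KO 4 rose and 1 fell (5.98% and 10.5% of all genes), and in dKO against Bcat_KO 2 rose and 7 fell (15.9% and 11.5%). Atf4, a stress transcription factor, was higher in Bcat_KO than in HOXA9_KO by 0.61 ± 0.10 (edgeR adjusted p = 0.003251) and lower in dKO than in Bcat_KO by 0.61 ± 0.10 (0.001721). Dnajb9, a J-domain protein of this compartment, moved the other way, with a fall of 0.82 ± 0.12 in Bcat_KO against WT (0.002064) and a level 1.00 ± 0.12 higher in dKO than in Bcat_KO (0.0003135). Ern1, the sensor IRE1 alpha, rose by 0.78 ± 0.12 in Bcat_KO against WT (0.002412).

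Of 37 other J-domain genes, 0 rose and 1 fell in HOXA9_KO and 2 rose and 3 fell in Bcat_KO against WT. Of all genes, 3.62% rose and 1.71% fell in HOXA9_KO, and 6.69% rose and 9.01% fell in Bcat_KO against WT. In dKO against Bcat_KO these shares were 15.9 and 11.5%. Of 17 other mitochondrial chaperones and proteases, 0 changed in HOXA9_KO and 1 rose in Bcat_KO, and 2 rose and 5 fell in dKO against Bcat_KO, where Phb, a prohibitin, fell by 0.61 ± 0.10 (edgeR adjusted p = 0.00128). Of 14 genes of the cytosolic chaperonin TRiC and prefoldin, 0 rose and 3 fell in Bcat_KO against WT, and these counts varied over the alternatives. Among the immediate early genes Atf3, a stress factor, fell by 1.23 ± 0.15 in Bcat_KO against WT (0.000828), and Socs3, a cytokine feedback gene, was higher in dKO than in Bcat_KO by 1.63 ± 0.16 (0.0001042).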
